A study of Mus musculus with 9 samples.

Results

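The amount of fat-cell RNA differed widely among 9 colon libraries from wild-type mice, and the libraries at both ends of that range were compared. They were chosen by their measured count of Adipoq, the gene of adiponectin, a hormone that fat cells secrete. The 3 libraries with 15 or more counts were called fat-rich, the 3 libraries with 0 counts were called fat-free, and the 3 libraries between them, with 7 to 9 counts, were left out of the test and served as an intermediate check. Thus 6 of 9 libraries entered the comparison. All mice were female C57BL/6N wild-type animals aged 12 months, kept either in the standard environment (SE, 4 mice) or in the enriched environment (EE, 5 mice), in which larger groups shared a bigger cage with running wheels, tunnels and changing objects. Fat-rich were mice 1 and 3 of SE and mouse 3 of EE, fat-free were mice 2 and 5 of SE and mouse 5 of EE, and intermediate were mice 1, 2 and 4 of EE. The transgenic animals of the study were not analysed here.

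The sample labels hold no such classes, and no record of fat on the tissue was found in the sources used here. The classes come from a measured count, so every test below describes what went along with Adipoq in these libraries and is not the effect of a treatment. Other adipocyte genes are made by the same cell type as Adipoq, and their differences between the classes describe the sorting rather than support it. In bulk tissue, fewer cells of a type and less RNA per cell cannot be told apart.

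White adipocytes store triglyceride in a large lipid droplet, release fatty acids from it by lipolysis, and secrete hormones and other proteins into the blood. In the abdomen they fill the mesentery, the sheet of tissue that carries vessels to the gut, so that a dissected piece of colon can carry some of them along its attached edge. The colon wall has its own lipid metabolism, and genes such as Fasn, Pparg and Pck1 are expressed in the epithelium, while Cd36, Fabp4 and Lpl are also used by endothelial cells and macrophages.

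Each library came from a 2 to 3 cm piece of upper colon that had been flushed, rinsed and snap frozen. The libraries were made by QuantSeq 3′ sequencing, which reads each transcript next to its poly(A) tail, and the deposited values are counts per gene. Totals lay between 299062 and 444520 counts in the fat-rich libraries and between 356704 and 426436 in the fat-free libraries. Levels are given as raw counts or as normalized CPM (counts relative to the library total, scaled by TMM), and class means as mean ± SD over 3 libraries. A count of 0 allows a level of up to 3 counts, which is between 6.61 and 10.2 CPM here, and covers counting error only. The names of SE 1 and SE 3, both fat-rich, end in L3 and those of the other 7 libraries in L2. What this ending stands for is not given in the sources used here, and it can be told apart from the fat class only through EE 3. Transcripts encoded in mitochondria made up 0.364% ± 0.0571 of all counts in the fat-rich class and 0.356% ± 0.0155 in the fat-free class.

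Adipoq (chr16:23146536-23158028 in GRCm38) had 70 counts in SE 1, 29 in EE 3 and 15 in SE 3. The 3 intermediate libraries had 9 counts (EE 2), 7 counts (EE 1) and 7 counts (EE 4), and EE 5, SE 2 and SE 5 had 0. Just inside and outside the limit of the fat-rich class were SE 3 with 50.6 and EE 2 with 31.3 normalized CPM. Adipoq chose the classes and was left out of every count of genes compared between the classes below.

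The class means of the 3 other marker genes of fat cells followed the same order, but single libraries did not always. Car3 had more counts in the intermediate EE 2 than in the fat-rich SE 3. Car3 (carbonic anhydrase 3, chr3:14863512-14872523), an abundant protein of white adipocytes, had 120, 86 and 38 counts in SE 1, EE 3 and SE 3, 50, 46 and 31 counts in EE 2, EE 1 and EE 4, and 0, 9 and 4 counts in EE 5, SE 2 and SE 5. Its level was 209 ± 94.2 normalized CPM in the fat-rich class and 11.97 ± 12.5 in the fat-free class, a log2 fold change of 4.19 ± 0.36 (± standard error, adjusted p = 3.12e-16). All adjusted p-values come from the quasi-likelihood F test of edgeR and were corrected over all genes by the method of Benjamini and Hochberg. Plin1 (perilipin 1, chr7:79720218-79732903), which coats the lipid droplet, had 25, 7 and 3 counts in the fat-rich libraries, 2, 1 and 1 in the intermediate ones, and 0, 0 and 1 in EE 5, SE 2 and SE 5. Neither gene overlapped between the fat-rich and the fat-free class, which held for 7.47% of all genes in either direction. The ratio of the summed Plin1 counts per total was 35.5, with a 95% counting interval from 5.98 to 1.44e+03 (adjusted p = 0.00104, edgeR).

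Most of the Plin1 counts stood in SE 1. Without SE 1 the log2 fold change of Plin1 was 3.51 (adjusted p = 0.812, edgeR), and without EE 5 it was 4.19 (adjusted p = 0.201, edgeR). Cidec, which promotes the growth of lipid droplets, had 24, 6 and 3 counts in SE 1, EE 3 and SE 3, 4, 10 and 1 counts in EE 2, EE 1 and EE 4, and 3, 3 and 2 counts in EE 5, SE 2 and SE 5. Its fat-rich and fat-free classes did not overlap, at 28.5 ± 29.5 and 6.91 ± 1.44 normalized CPM, although the intermediate EE 1 had more counts than EE 3 and SE 3. The difference did not pass the adjusted test (log2 fold change 2.02 ± 0.60, adjusted p = 0.56, edgeR) and was 0.78 without SE 1. Summed over Plin1, Cidec and Car3, the fat-rich libraries held 440, 215 and 148 normalized CPM, the intermediate libraries 195, 123 and 102, and EE 5, SE 2 and SE 5 held 6.93, 33.3 and 19.1. The fat-free libraries therefore still held a few counts of Car3 and Cidec, and the name fat-free stands only for a count of 0 for Adipoq.

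**Figure D1:**
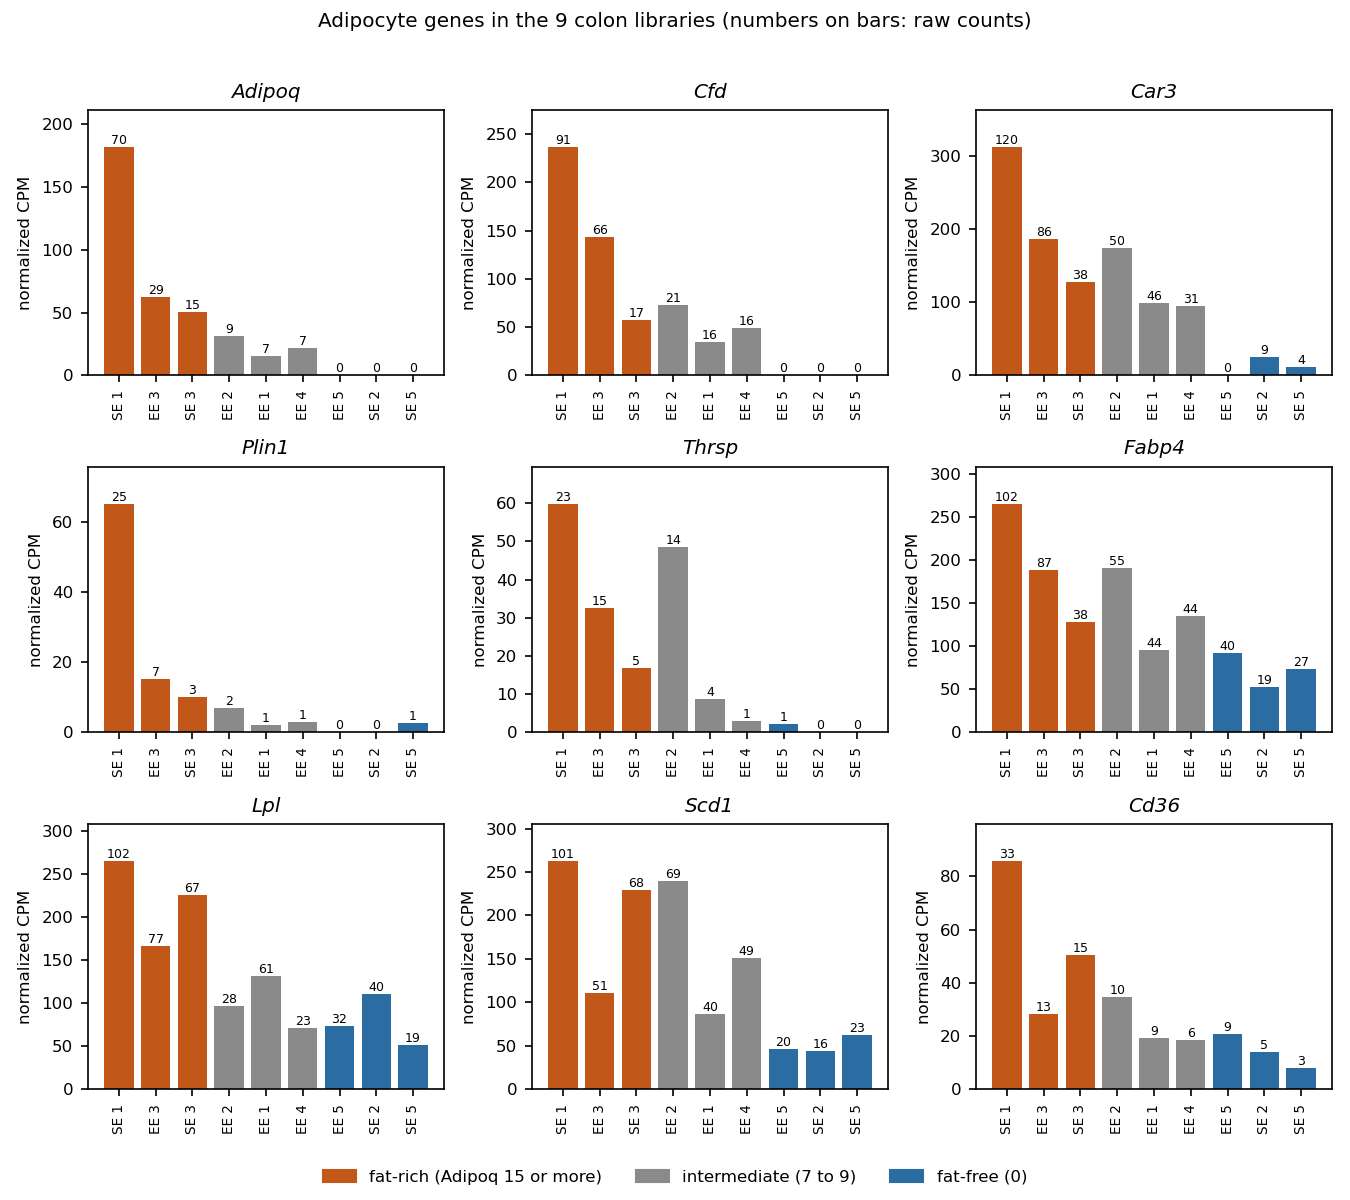
Normalized CPM (y axis) of Adipoq and 8 other adipocyte genes in each of the 9 libraries (x axis), 1 bar per library with its raw count on top and the fat class as colour. Cfd falls from 91 counts in SE 1 to 0 in the 3 fat-free libraries, while Fabp4 and Lpl keep between 19 and 40 counts there.

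Across all genes, 15 of 17440 passed an adjusted p of 0.05, which is 0.086%, and 9 of the 15 were among the 40 genes of a white adipocyte list. These 9 were Cfd, Car3, Scd1, Lpl, Thrsp, Fabp4, Plin1, Nnat and Cd36, and all 9 were higher in the fat-rich class, where 0.0631% of all genes were called higher. At an unadjusted p under 0.05 (edgeR), 18 of the 35 tested list genes were higher and 0 were lower, compared with 1.63% of all genes higher and 1.59% lower. The median log2 fold change of the 35 genes was 0.95, and that of all genes was −0.0083. The other 17 tested list genes did not pass, and 5 of the 35 had a negative log2 fold change. Of the 35 tested genes, 13 had classes that did not overlap and were higher in the fat-rich libraries, as did 3.23% of all genes. Of the 18 genes, 15 were higher both among the SE libraries and in EE 3 than EE 5. The 18 were picked as higher in these same libraries, so this agreement was largely set by that choice and is no replication. Lep and Mrap, both among the 18, passed the filter on low counts only through the fat-rich class. They could thus only come out higher, and their part in the 18 says nothing about direction. In all, 38 list genes besides Adipoq had a count in the table.

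The intermediate libraries lay between the classes for most of the tested list genes. Their mean was between both class means in 24 of the 35 genes, which held for 27.4% of all genes. Summed over the white adipocyte list without Adipoq, the fat-rich libraries held 3324, 2527 and 2396 normalized CPM, the intermediate libraries 2326, 2050 and 1876, and the fat-free libraries 1639, 1601 and 1438. The order of the 3 classes was kept with no overlap, but SE 3 with 2396 and EE 2 with 2326 lay close together. Adipoq, which cut the classes, is a gene of the same cells, so this order describes the sorting and does not support it. As a share of all counts, with Adipoq, the list took 0.351% in SE 1 and 0.143% in SE 5. The ratio of the class means was 1.76 for the whole list and 13.5 for Plin1, Cidec and Car3 alone. The second ratio rests on 3, 12 and 7 counts in EE 5, SE 2 and SE 5, and it was 20.6 without SE 2 and 9.17 without SE 1.

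**Figure D2:**
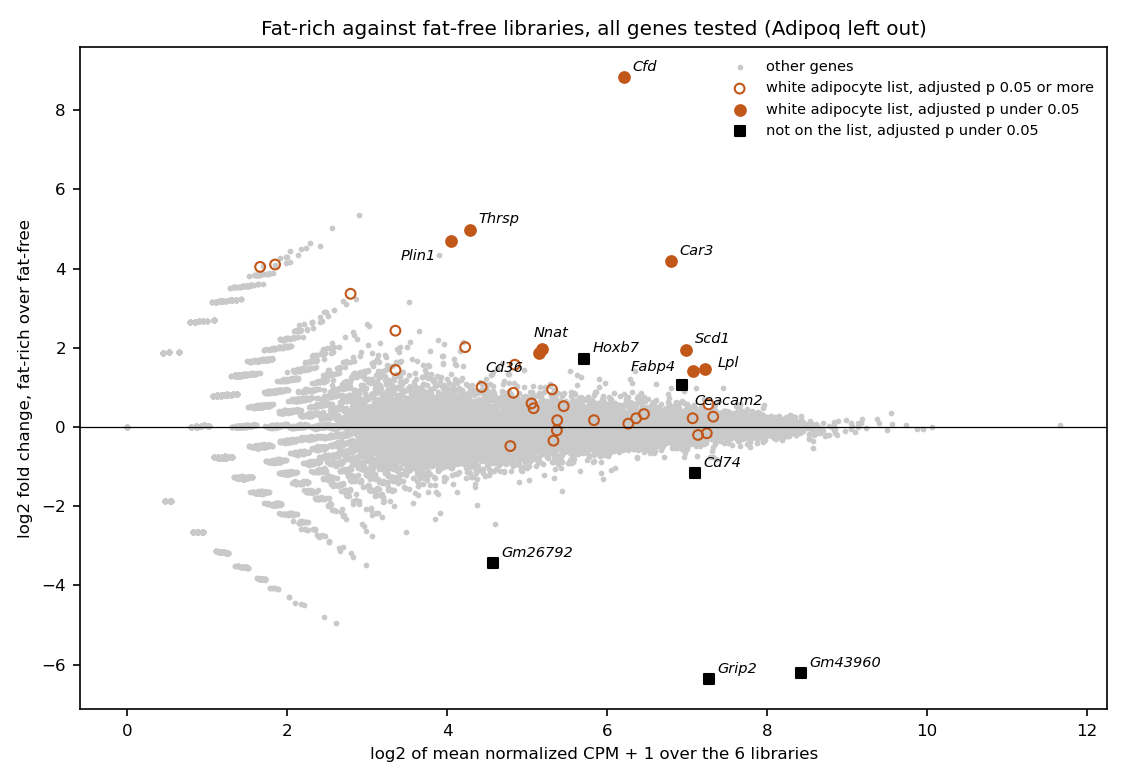
Log2 fold change of fat-rich over fat-free libraries (y axis) against log2 of the mean normalized CPM plus 1 over the 6 libraries (x axis) for all 17440 genes, with the white adipocyte list in orange and filled symbols for genes with an adjusted p under 0.05. The 9 filled orange genes lie above 0, and 4 of the 6 called genes outside the list lie below it.

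Among the secreted products, Cfd (adipsin, chr10:79890853-79892655), a protease of the complement pathway that fat cells release, was counted in each fat-rich and each intermediate library and in no fat-free one. It had 91, 66 and 17 counts in SE 1, EE 3 and SE 3, 21, 16 and 16 counts in EE 2, EE 1 and EE 4, and 0 in each fat-free library. Against a floor of 3 counts per library, Cfd was at least 18.7-fold higher in the fat-rich class (adjusted p = 2.72e-17, edgeR). Retn, the gene of the hormone resistin, had 4, 9 and 1 counts in the fat-rich libraries and 1, 0 and 0 in EE 5, SE 2 and SE 5, a ratio of summed counts per total of 14.2 with a counting interval from 2.16 to 601. It passed only the unadjusted limit of 0.05 (adjusted p = 1, edgeR). Lep, the gene of leptin, was seen with 6 counts in SE 1 and 1 count in EE 1, and 0 in the other 7 libraries.

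Nnat (neuronatin, chr2:157560078-157562522), a small membrane protein of fat cells and neurons that was kept on the same list, had 29, 11 and 21 counts in SE 1, EE 3 and SE 3 and 3, 9 and 4 counts in EE 5, SE 2 and SE 5. Its level was 56.8 ± 28.6 against 14.3 ± 9.50 normalized CPM (log2 fold change 1.96 ± 0.44, adjusted p = 0.0284, edgeR), and the classes overlapped, since SE 2 was above EE 3. The difference fell to 0.77 with the library-name ending in the model, and it lost its call without SE 1 (1.70), SE 3 (1.78), SE 5 (1.84) or EE 5 (1.63). Nnat lies inside Blcap, which is read from the other strand, and the strand setting of the counting is not given in the sources used here.

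Of 11 tested lipid droplet and lipolysis genes, 3 were higher at an unadjusted p under 0.05 (Plin1, Cidec and Lipe), 0 were lower, and 1 was called after adjustment. Over all genes, 1.63% were higher and 1.59% lower at that p. The called members of this list, and of the lists of fatty acid uptake, fatty acid synthesis and transcription below, are all on the white adipocyte list. They are thus among the 18 genes given above and add none to them. Lipe, which encodes hormone-sensitive lipase, had 22, 17 and 9 counts in the fat-rich libraries, 8, 9 and 11 in the intermediate ones and 4, 5 and 7 in EE 5, SE 2 and SE 5. These were 41.5 ± 14.1 and 14.1 ± 4.93 normalized CPM in the classes compared, with no overlap (log2 fold change 1.57 ± 0.45, adjusted p = 0.393, edgeR). Plin4, a further droplet coat protein, stood at 35.2 ± 27.8 and 19.6 ± 3.37 normalized CPM, where SE 3 with 10.1 was below each fat-free library and SE 1 with 65.1 was highest, and it missed the unadjusted limit.

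Of 12 tested genes that bring fatty acids into the cell or build triglyceride, 4 were higher at an unadjusted p under 0.05 (Lpl, Cd36, Fabp4 and Gpd1), 0 were lower, and 3 passed adjustment. All 4 are also on the white adipocyte list, and 1.63% of all genes were higher at that p. Lpl (lipoprotein lipase, chr8:68880491-68907448), which frees fatty acids from circulating lipoproteins, had 102, 77 and 67 counts in SE 1, EE 3 and SE 3, 28, 61 and 23 counts in EE 2, EE 1 and EE 4, and 32, 40 and 19 counts in EE 5, SE 2 and SE 5. The classes did not overlap, at 220 ± 49.7 and 79.0 ± 29.99 normalized CPM (log2 fold change 1.47 ± 0.22, adjusted p = 6e-06, edgeR). Fabp4 (chr3:10204088-10208576), a carrier of fatty acids inside the cell, had 102, 87 and 38 counts in the fat-rich libraries, 55, 44 and 44 in the intermediate ones and 40, 19 and 27 in EE 5, SE 2 and SE 5. Its class means were 194 ± 68.9 and 72.9 ± 19.8 normalized CPM (log2 fold change 1.41 ± 0.23, adjusted p = 4.97e-05, edgeR). Both genes were thus well above 0 in the fat-free libraries, unlike Adipoq, Cfd and Plin1.

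Cd36 (chr5:17781690-17888801), a fatty acid receptor at the cell surface, had 33, 13 and 15 counts in SE 1, EE 3 and SE 3 and 9, 5 and 3 counts in EE 5, SE 2 and SE 5. It was 54.9 ± 29.1 normalized CPM in the fat-rich and 14.3 ± 6.31 in the fat-free class (log2 fold change 1.87 ± 0.43, adjusted p = 0.0371, edgeR). This call was lost without SE 1 (1.40), SE 5 (1.63) or EE 5 (2.29, adjusted p = 0.155, edgeR). Gpd1, which makes the glycerol backbone of triglyceride, was 51.3 ± 15.6 and 26.3 ± 13.5 normalized CPM, with overlapping classes (adjusted p = 1, edgeR).

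Some fatty acid synthesis genes were higher in the fat-rich than in the fat-free class, and others were not. Of 11 tested members, 3 were higher at an unadjusted p under 0.05 (Scd1, Thrsp and Fasn) and 0 were lower. The shares over all genes were 1.63% and 1.59%. Scd1 (chr19:44394455-44407879), the desaturase that makes oleic acid, had 101, 51 and 68 counts in SE 1, EE 3 and SE 3, 69, 40 and 49 counts in EE 2, EE 1 and EE 4, and 20, 16 and 23 counts in EE 5, SE 2 and SE 5. The classes were apart at 201 ± 80.2 and 51.1 ± 10.1 normalized CPM (log2 fold change 1.95 ± 0.26, adjusted p = 4.75e-08, edgeR). Thrsp (chr7:97412938-97417730), a regulator of lipid synthesis, had 23, 15 and 5 counts in the fat-rich libraries, 14, 4 and 1 in the intermediate ones, and 1, 0 and 0 in EE 5, SE 2 and SE 5. Its ratio of summed counts per total was 43.7, with a counting interval from 7.43 to 1.76e+03 (adjusted p = 2.62e-05, edgeR). Fasn, the fatty acid synthase, was 183 ± 23.4 and 124 ± 9.74 normalized CPM (log2 fold change 0.57, adjusted p = 1, edgeR). Acly, which supplies acetyl-CoA for the same pathway, was 143 ± 9.42 and 159 ± 17.8 normalized CPM, with overlapping classes.

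The transcription factors that drive the adipocyte overlapped between the classes. Pparg, the master regulator of fat-cell differentiation, had 25, 47 and 20 counts in SE 1, EE 3 and SE 3 and 48, 31 and 9 counts in EE 5, SE 2 and SE 5, and its log2 fold change of 0.08 ± 0.30 was smaller than its error. Cebpa, which acts with Pparg, was 50.2 ± 5.36 and 35.8 ± 19.3 normalized CPM, and missed the unadjusted limit. Of 16 tested genes of transcription and hormone response, 2 were higher at an unadjusted p under 0.05, Npr3 and Mrap, and 0 were called after adjustment. Over all genes, 1.63% were higher at that p. Mrap rested on 6 counts in EE 3 and 0 in the other 8 libraries. It passed the filter on low counts only through the fat-rich class, so it could only come out higher. Ucp1, the uncoupling protein that defines brown fat, had no count in the table. Of the 7 brown and beige adipocyte genes tested 0 were called at an unadjusted p under 0.05 (edgeR), beside 3.22% of all genes.

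Without any single library, 6 of the 9 adipocyte genes kept an adjusted p under 0.05, namely Car3, Cfd, Fabp4, Lpl, Scd1 and Thrsp. Other methods did not call all of these 6. DESeq2's Wald test called Cfd, Fabp4, Lpl and Scd1, and limma-voom called Car3 and Cfd. After the low-count filter filterByExpr, edgeR called Fabp4, Lpl and Scd1. With the library-name ending in the model, the contrast rests on EE 3 against the fat-free libraries, and 4 of the 9 stayed called, Car3, Cfd, Fabp4 and Thrsp. In that model the log2 fold change was 3.70 for Plin1, 1.11 for Scd1, 1.08 for Lpl and 0.93 for Cd36, each with the same direction as before.

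Genes of the other tissues that could come with a piece of colon did not follow the fat classes as a group. Over 20 lists of cell types other than mature fat cells, 215 distinct genes that are not also on the white adipocyte list were tested, of which 3 were higher and 7 lower at an unadjusted p under 0.05. That is 4.65%, beside 3.22% of all genes, and 0 passed adjustment (edgeR). Lpl, which is both a white adipocyte and a macrophage gene, was left out of this count, and it passed adjustment. The list medians lay between −0.60 and 0.36 on the log2 scale. The summed levels of fat-rich and fat-free libraries overlapped in 19 of the 20 lists. The exception was the list of pericytes and vascular muscle, with 459 to 547 normalized CPM in the fat-rich and 559 to 576 in the fat-free libraries, and the intermediate libraries ranged from 461 to 758.

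Of the tissues that border on mesenteric fat, the mesothelium, the thin layer that covers gut and mesentery, had 0 of 11 tested genes called at an unadjusted p under 0.05. The summed level of its list was 704 to 830 normalized CPM in the fat-rich and 699.6 to 772 in the fat-free libraries. That sum is weighted to genes of high level such as Cldn15, whose log2 mean normalized CPM was 7.79 where that of Wt1 was 2.66. It therefore does not measure this layer by itself. Adipocyte progenitors and loose connective tissue had 0 of 17 called, with 1354 to 1560 and 1342 to 1585 normalized CPM. Blood vessel endothelium had 0 of 15 called, with 334 to 488 and 450.3 to 521 normalized CPM. Lymph node and B cell genes had 0 of 13 called and ranged from 21.7 to 133 in the fat-rich and from 35.5 to 164 in the fat-free libraries. Among macrophage and dendritic cell genes, 1 of 15 was higher, which was Lpl itself. The pancreatic enzymes Prss2, Ctrb1 and Pnlip had at most 1 count in any library, and 0 of the 4 tested genes of the pancreas list were called. Of its 15 members only 9 had a count, and it holds Zg16, which is also on the goblet cell list. The 0 of 4 therefore says little about pancreas. Apart from that of Lpl, these neighbouring lists held no call at this depth. Over all genes 3.22% had such a p, so 0 calls in lists this short lie near that share. They were not read as a result about these tissues.

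The 10 genes of these 20 lists with an unadjusted p under 0.05 were genes of the colon wall, and none of them passed adjustment (edgeR), beside the 1.63% of all genes that were higher and 1.59% that were lower. Of 11 crypt stem and dividing cell genes 2 were lower, Ascl2, a transcription factor of stem cells, and Smoc2. Of 18 surface epithelium genes Car1 was higher and Aqp8 lower, of 10 enteroendocrine genes Tph1 was higher, and of 11 goblet cell genes Ang4 was lower. Of 14 visceral smooth muscle genes Lmod1 was lower, of 5 pacemaker cell genes Ano1 was lower, of 15 fibroblast genes Fbln1 was lower, and of 14 enteric neuron genes Tubb3 was higher. Epcam, which marks epithelium, had a log2 fold change of −0.0024 and Myh11, the myosin of smooth muscle, one of −0.02. Ano1, a chloride channel of the interstitial pacemaker cells of the gut, was 96.6 ± 24.3 in the fat-rich and 152 ± 45.5 normalized CPM in the fat-free class (adjusted p = 1, edgeR).

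**Figure D3:**
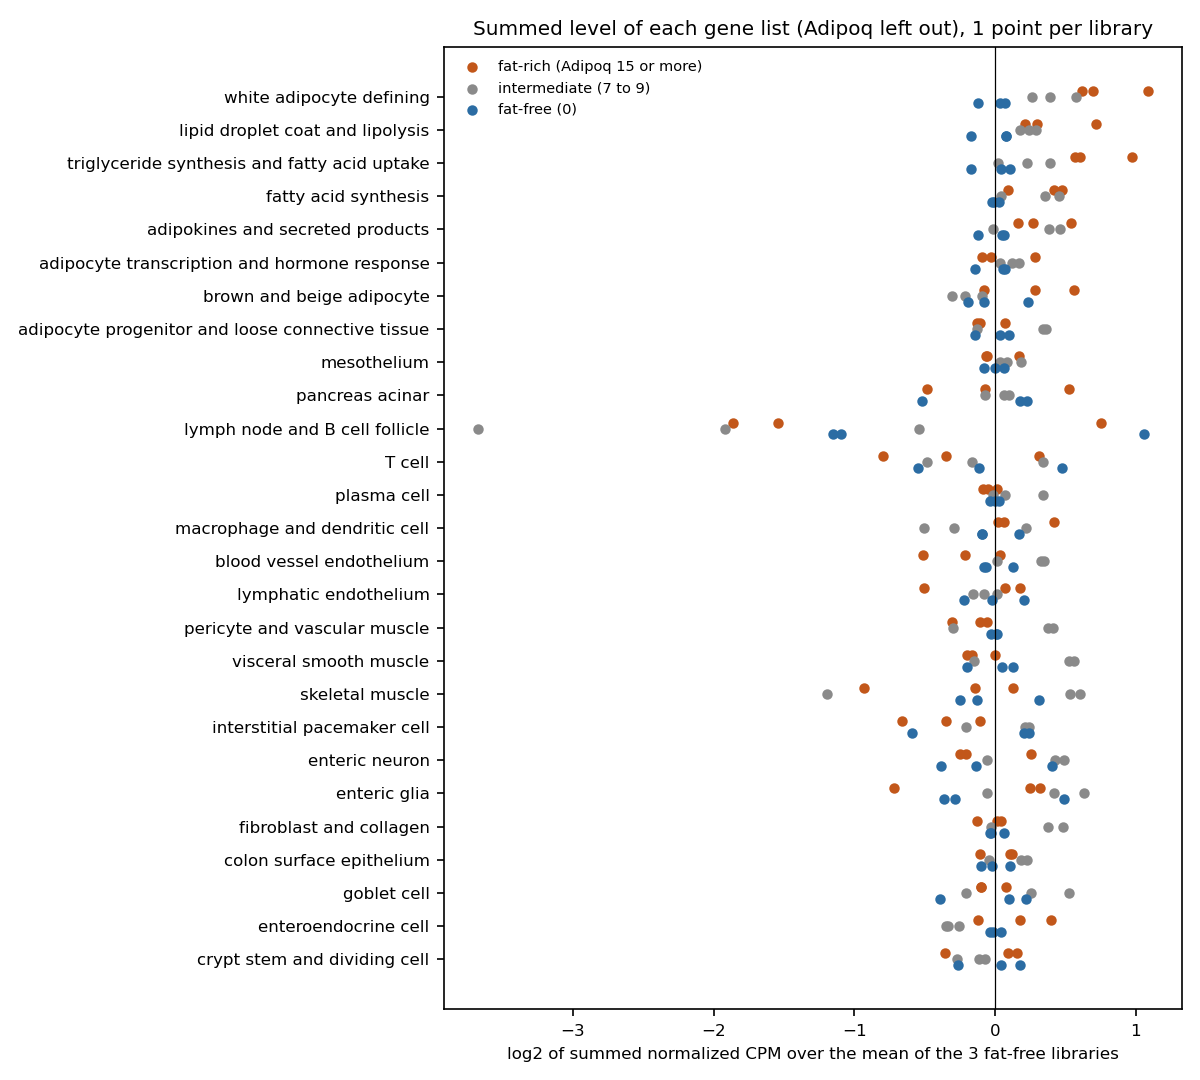
Log2 of the summed normalized CPM of each gene list relative to the mean of the fat-free libraries (x axis), 1 point per library and 1 row per list (y axis), coloured by fat class. The white adipocyte list runs from 1438 to 1639 normalized CPM in the fat-free and from 2396 to 3324 in the fat-rich libraries without overlap, whereas in 19 of the 20 lists of other cell types the points of both classes overlap.

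Outside the adipocyte list, 6 genes were called after adjustment, 2 higher (Hoxb7 and Ceacam2) and 4 lower (Cd74, Gm26792, Gm43960 and Grip2) in the fat-rich class, where 0.0229% of all genes were called lower. Ceacam2 (chr7:25516042-25539857), a cell adhesion protein, had 74, 58 and 52 counts in SE 1, EE 3 and SE 3, 29, 34 and 26 counts in EE 2, EE 1 and EE 4, and 22, 37 and 30 counts in EE 5, SE 2 and SE 5. The classes did not overlap (165 ± 34.8 and 78.5 ± 26.2 normalized CPM, log2 fold change 1.07 ± 0.24, adjusted p = 0.0236, edgeR), and the call was lost without SE 1 (0.97), SE 3 (1.03) or EE 5 (0.85) and with the library-name ending in the model (0.70). Ceacam2 overlaps 4732471J01Rik on the other strand, as does Lipe, and is nearly identical to Ceacam1, whose level was 704 ± 71.7 and 653 ± 106 normalized CPM, and how reads shared by both were counted is not given in the sources used here.

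Cd74, the invariant chain that loads peptides onto MHC class II of antigen-presenting cells, went the other way from the adipocyte genes. It had 26, 56 and 16 counts in SE 1, EE 3 and SE 3, 65, 77 and 26 counts in EE 2, EE 1 and EE 4, and 45, 80 and 91 counts in EE 5, SE 2 and SE 5, so that the classes overlapped, unlike in 4.24% of all genes, which were lower in each fat-rich than in each fat-free library. Its mean was 81.0 ± 35.6 in the fat-rich and 191 ± 76.9 normalized CPM in the fat-free class (log2 fold change −1.17 ± 0.24, adjusted p = 0.00593, edgeR). Among SE libraries the ratio was 0.259, whereas EE 3 was 1.17 times EE 5. With the library-name ending in the model the difference was −0.64, and without SE 5 it was −0.92 (adjusted p = 0.323, edgeR). The class II genes H2-Ab1 and H2-Aa, which present the peptides, had log2 fold changes of −0.82 (adjusted p = 0.162, edgeR) and −0.76 (adjusted p = 0.291, edgeR), and in EE 3 over EE 5 the ratios were 1.15 and 0.99. H2-Eb1, another class II gene, and Ciita, which switches the class II genes on, were at −0.41 and −0.50 without passing the unadjusted test. H2-Ab1, H2-Eb1 and Ciita were chosen after their values were seen.

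Genes that mark the position along the gut also differed between the classes. Of 13 tested, 3 were higher (Slc10a2, Hoxb8 and Osr2) and 1 was lower (Hoxb13) in the fat-rich class at an unadjusted p under 0.05, and 0 passed adjustment (edgeR), beside 3.22% of all genes with such a p. They varied strongly within the classes as well. Slc10a2, the bile acid transporter of the ileum, had 26, 117 and 110 counts in SE 1, EE 3 and SE 3, 3, 107 and 4 counts in EE 2, EE 1 and EE 4, and 10, 103 and 16 counts in EE 5, SE 2 and SE 5. High counts were thus found in every class, and Osr2, a transcription factor, was high in EE 3, SE 3, EE 1 and SE 2 as well, with 81 to 93 counts against at most 7 in the other 5 libraries. Hoxb13, the most posterior gene of its cluster, was at 0 in SE 3, EE 1 and SE 2 and reached 56 counts in SE 5 and 45 in EE 2. Hoxb7 (chr11:96286623-96290162), a homeobox gene of the same cluster, had 24, 37 and 28 counts in the fat-rich libraries, 2, 31 and 7 in the intermediate ones and 6, 17 and 4 in EE 5, SE 2 and SE 5. Its classes did not overlap (79.1 ± 16.02 and 24.0 ± 20.2 normalized CPM, log2 fold change 1.73 ± 0.36, adjusted p = 0.00934, edgeR).

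The call of Hoxb7 was lost without SE 5 (1.42) or EE 5 (1.46), with the Slc10a2 level in the model (1.24, adjusted p = 0.303, edgeR) and with the library-name ending in the model (1.76, adjusted p = 0.0521, edgeR). With the Slc10a2 covariate the 9 adipocyte genes stayed called, and the log2 fold change of Plin1 was then 6.44. The neighbour Hoxb8 was higher by 1.41 ± 0.33 (adjusted p = 0.0539, edgeR), whereas Hoxb9, chosen after its values were seen, differed by 0.11. Of the 3 fat-rich libraries, 2 had over 100 Slc10a2 counts and 1 of the 3 fat-free libraries did, and the part of gut position in the class differences was not tested beyond this model.

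For 3 lower genes the spread within a class was wide. Gm43960 (chr6:10804828-10809847), a processed pseudogene, had 3, 2 and 5 counts in the fat-rich libraries, 494, 471 and 441 in the intermediate ones and 415, 384 and 3 in EE 5, SE 2 and SE 5. Grip2 (chr6:91761509-91827250), a scaffold protein of synapses, had 0, 3 and 1 counts in the fat-rich libraries and 357, 29 and 4 in EE 5, SE 2 and SE 5, and of the intermediate libraries EE 2 had 442 where EE 1 and EE 4 had 3 and 5. Both were on or off in single libraries rather than graded with Adipoq. They passed with adjusted p of 2.72e-17 and 1.97e-12 (edgeR), and neither passed when the quasi-likelihood fit was made robust to such genes. Gm26792 (chr19:46335287-46338538), a long noncoding RNA that overlaps Cuedc2 on the other strand, had 0, 0 and 4 counts in the fat-rich libraries and 27, 19 and 3 in EE 5, SE 2 and SE 5 (log2 fold change −3.43 ± 0.66, adjusted p = 0.00165, edgeR), and lost its call without EE 5 (−2.94).

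**Figure D4:**
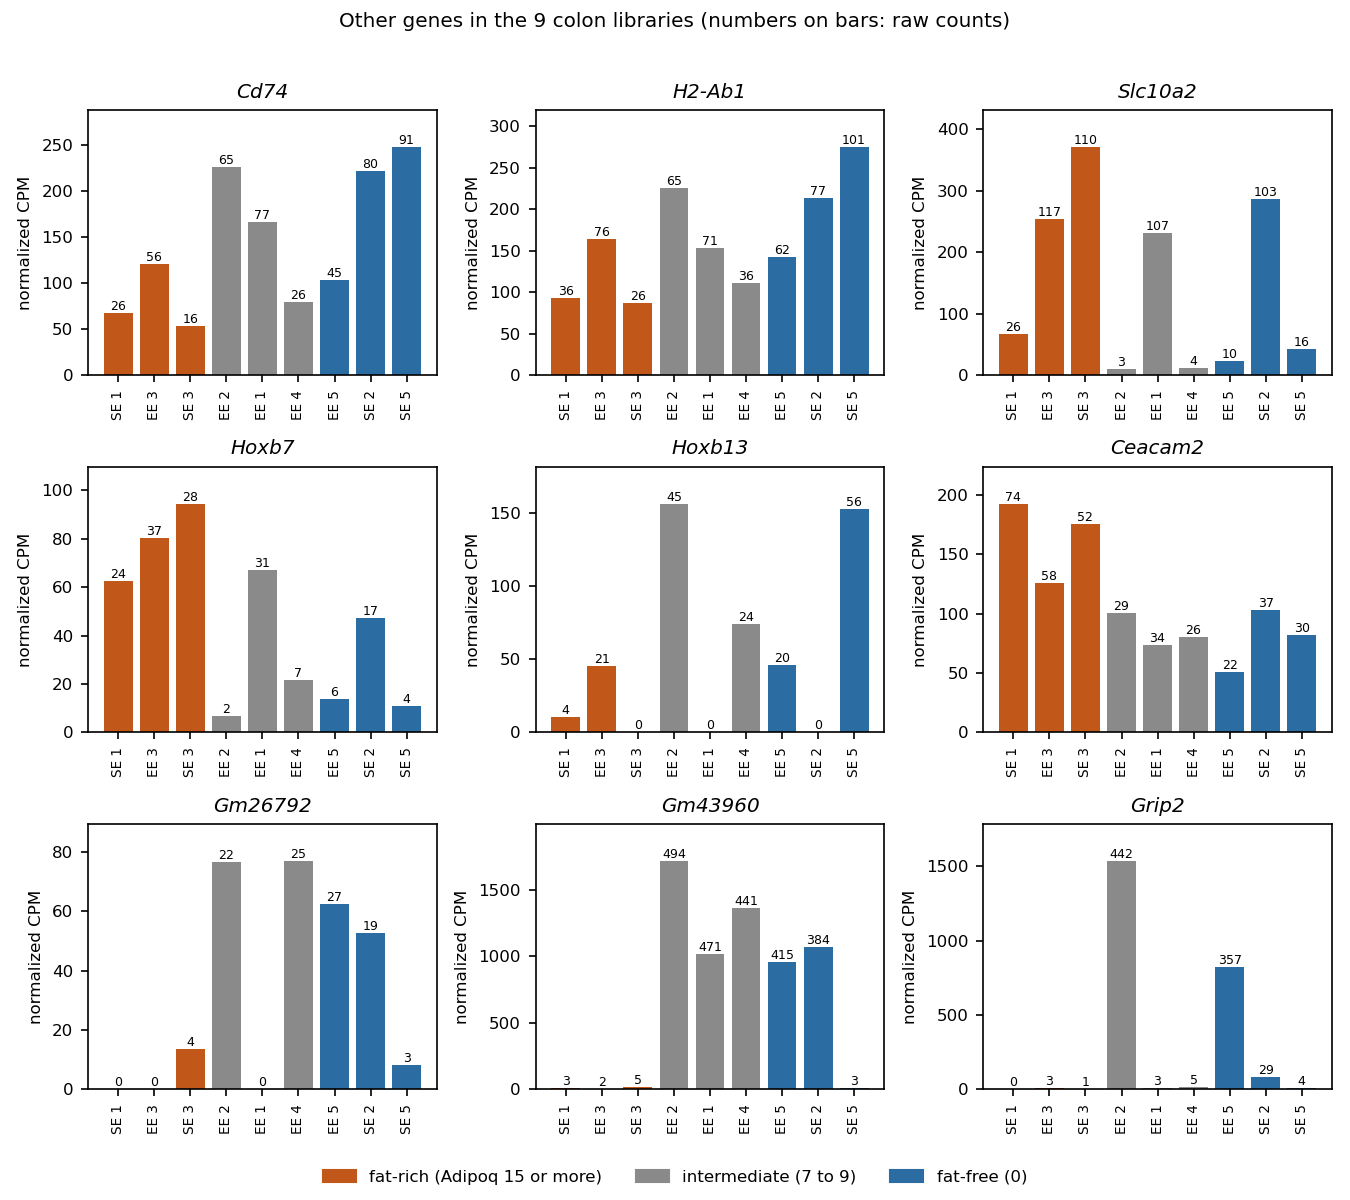
Normalized CPM (y axis) of 9 genes outside the adipocyte list in each library (x axis), with raw counts on the bars and the fat class as colour. Ceacam2 and Hoxb7 are higher in each fat-rich than in each fat-free library, Slc10a2 exceeds 100 counts in libraries of every class, and Gm43960 and Grip2 are high in some libraries and near 0 in others of the same class.

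The study compared the 2 environments, and fat-cell RNA was read between them. Of the 4 SE libraries 2 were fat-rich and 2 fat-free, and of the 5 EE libraries 1 was fat-rich and 1 fat-free. These classes are the sorting by Adipoq itself, and they are too small to compare the environments by class. Summed over the white adipocyte list without Adipoq, SE libraries held 2190 ± 864 normalized CPM (SD, n = 4). EE libraries held 2084 ± 352 (SD, n = 5), a difference of −106 from SE (two-sided exact permutation test, p = 0.825). For Plin1, Cidec and Car3 together the difference was −32.0 normalized CPM (exact permutation p = 0.778). The SE libraries stood at the top and at the bottom of the range, with 3324 in SE 1 and 1438 in SE 5, and the EE libraries between them. A difference between the environments was not detectable within this spread. Per the paper, mice shared cages within each environment. The tests took each mouse as independent and held no term for the cage, so cage and environment cannot be told apart here.

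Of the 35 tested white adipocyte genes, 5 had an unadjusted p under 0.05 between the environments, where 7.64% of all genes did. Plin1 (log2 fold change of EE over SE −1.80 ± 0.75), Nnat (−0.99 ± 0.40) and Lpl (−0.56 ± 0.27) were lower in EE, in a direction that 3.34% of all genes took, and Pparg and Pcx were higher. None of the 5 passed adjustment (adjusted p of 0.519 for Plin1, 0.488 for Nnat and 0.63 for Lpl, edgeR), while 7 of 17441 genes did (0.0401%). Plin1 was high in SE 1 with 65.1 normalized CPM, and the other 3 SE libraries lay between 0 and 10.1.

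**Figure D5:**
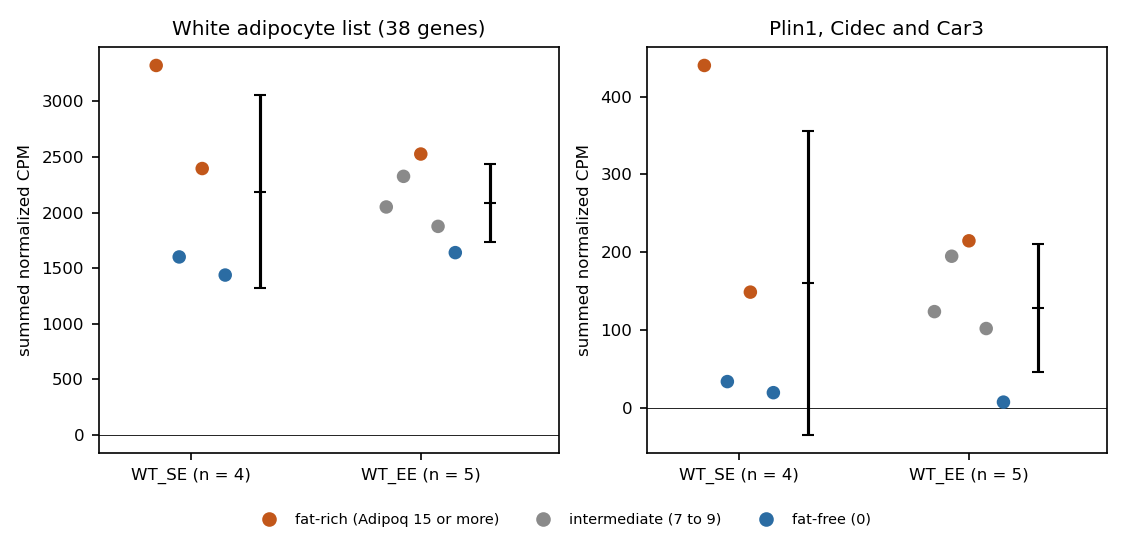
Summed normalized CPM (y axis) of the white adipocyte list without Adipoq (left) and of Plin1, Cidec and Car3 (right) in the SE and EE libraries (x axis), 1 point per library coloured by fat class, with mean and SD beside each group. The SE points run from 1438 to 3324 on the left and enclose the EE points, which run from 1639 to 2527.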

How the data were processed

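RNA of 9 colon samples was analysed. Per the submitters' processing notes, the authors used fastp 0.20.0, STAR 2.7.0f, featureCounts 1.6.0 of Subread, and UMI-tools with GRCm38.p6, and deposited whole-number counts per gene without normalization. The identifiers collapse copies of a molecule. Totals were 295535 to 454043 per library. The Ensembl identifiers of the files were named from GENCODE mouse release 21, which matched 22256 of 22262 genes.

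Genes that reached 4 CPM in 1 or more libraries were kept (17441 with Adipoq). Counts were scaled by TMM and tested with edgeR 4.0.16 (quasi-likelihood F test, R 4.3.3) with the fat class as the only term over 6 libraries, adjusted by Benjamini-Hochberg over all genes. The environments were fitted the same way over 9 libraries, and sums were compared by exact permutation tests in scipy 1.17.1. Alternatives included DESeq2 1.42.0 and voom of limma 3.58.1. The main fit was also run on simulated counts in which all genes had the same dispersion. Genes that are on or off in single libraries, such as Gm43960 and Grip2, were not simulated, so that run says nothing about such calls.

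The classes, the 31 gene lists (389 genes) and the alternatives were chosen with earlier results of these data known. Genes named are list members in order of level or p, at most 6 per list, every gene with an adjusted p under 0.05, the 10 higher and 10 lower genes of lowest p that are on no list and have classes without overlap, and genes that check tissue or position. Others are marked as chosen after their values were seen. That the samples are separate animals follows from the mouse numbers in the labels. The numbers restart in each environment, so equal numbers are different mice.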

Additional observations from a re-analysis of the deposited data

Results flagged for a closer look

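In 8 of the 68 gene and environment groups looked at, the highest library stood apart from the rest of its environment. A rate of 1 in 20 gives about 3.4 such flags for independent groups. The genes were partly chosen from these data and adipocyte genes vary together, so this comparison is no test. SE 1 was the library far above the other 3 SE libraries for 4 adipocyte genes. Its level was 65.1 normalized CPM for Plin1 (others 0 to 10.1), 62.5 for Cidec (others 5.46 to 10.1), 65.1 for Plin4 (others 10.1 to 19.5) and 15.6 for Adrb3, the beta-adrenergic receptor of fat cells (others 2.73 to 3.37, from 6 counts in SE 1). EE 2 stood apart from the other EE libraries for Plin4, with 48.7 against 23.1 to 30.3 normalized CPM. SE 2 stood apart for Grip2, with 80.6 against 0 to 10.9 normalized CPM, and for Gm43960, with 1067 against 7.81 to 16.9. SE 5 stood apart for Hoxb13, with 153 against 0 to 10.4 normalized CPM.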

How the results depend on the processing

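The list of 15 genes depended on the settings. The number called was 26 with no filter on low counts, 6 with a mean of at least 5 counts, 3 with filterByExpr, 31 with the environment as a covariate, 9 in a fit of all 9 libraries in 3 classes, 4 with DESeq2's Wald test (which left 106 adjusted p undefined), 2 with limma-voom and 0 in the 4 SE libraries alone by edgeR, where 612 genes had an unadjusted p under 0.05. Without 1 library it ranged from 9 (without EE 5) to 74 (without SE 2), with 67 without EE 3 and 30 without SE 1. With the Slc10a2 level as a covariate, added after seeing the data, it was 25, and with the robust fit, also added then, 16, of which 13 were among the 15. The 4 other scalings kept all 15. With the library-name ending in the model 16 were called, of which 7 were among the 15.

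The 561 genes with an unadjusted p under 0.05 became 280 with a mean of at least 5 counts, 165 with filterByExpr and 154 with DESeq2, and 376 to 1085 without 1 library. The share of them that was higher in the fat-rich class was 50.6%, and 44.9% with upper quartile scaling, 66.9% with DESeq2, 60.7% with a mean of at least 5 counts and 64.2% with filterByExpr. White adipocyte genes higher at that p were 18, and 4 with filterByExpr, which tests fewer genes. The ratio of the class means was 1.76 for the white adipocyte list and 13.5 for Plin1, Cidec and Car3 alone, which ranged from 9.17 (without SE 1) to 20.6 (without SE 2), an alternative added after seeing the data. Single directions reversed for Insig1, chosen after its values were seen (1.21, and −0.0097 with the library-name ending), and for Pparg (0.08, and from −0.30 without SE 5, through −0.16 without EE 3, to 0.55 without EE 5). The cause was not tested.

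No paired analysis was possible because the libraries come from separate animals, and equal numbers are different mice. The fat-rich mice carry the numbers 1 and 3 and the fat-free mice 2 and 5, so no number is shared by both classes either. Between the environments, the mouse number as a block gave 6 white adipocyte genes at an unadjusted p under 0.05 where 5 were found without it. Same-numbered libraries deviated together only weakly (correlations over 9465 genes from −0.02 to 0.12), 0 of the 4 correlated best with their own number, and the numbers belong to different animals. Without 1 library the count ranged from 2 (without EE 5) to 10 (without SE 2), with 9 without SE 1 and 8 without SE 5.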

Other observations

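Of the 20 genes on no list that had the smallest p and no overlap of the classes, none passed adjustment apart from Ceacam2, Hoxb7 and Grip2, which are given above (edgeR). Trarg1, which encodes a protein that guides the glucose transporter of fat and muscle cells, had 9, 4 and 2 counts in SE 1, EE 3 and SE 3, 2, 1 and 0 in EE 2, EE 1 and EE 4, and 0 in each fat-free library, and was at least 1.66-fold higher (adjusted p = 0.209, edgeR). Sertad3, a regulator of transcription, stood at 82.7 ± 4.81 in the fat-rich and 34.9 ± 10.98 normalized CPM in the fat-free class (adjusted p = 0.162, edgeR). Nexn, an actin-binding protein of muscle, stood at 118 ± 24.3 and 201 ± 36.0 normalized CPM (adjusted p = 0.257, edgeR), and Sntg2, a membrane scaffold protein, at 8.001 ± 2.52 and 31.5 ± 7.39 (adjusted p = 0.291, edgeR). Tph1, the enzyme that makes serotonin in enteroendocrine cells of the gut, had 36, 50 and 31 counts in the fat-rich libraries and 26, 23 and 15 in EE 5, SE 2 and SE 5. Its level was 102 ± 7.57 and 55.0 ± 12.3 normalized CPM with no overlap (adjusted p = 0.611, edgeR), while the intermediate libraries had 4, 31 and 15 counts, below as well as between the classes.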
